A study of Arabidopsis thaliana with 12 samples.

Results

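The effect of the *ubp22-1* allele on the seedling transcriptome was measured in light by comparing the 2 libraries labelled *ubp22-1* with the 2 wild-type (WT) libraries, out of 12 libraries and 6 conditions in the series. All libraries came from whole *Arabidopsis thaliana* plantlets (ecotype Columbia-0, 5 days old) grown on sugar-free MS agar, and each RNA extraction pooled about 12 whole seedlings. The *ubp22-1* mutant is a single insertion line, the *det1-1* line carries a mutation in *DET1*, and *det1-1ubp22-1* is their cross. Seedlings in light (L) had a 16 h light and 8 h dark photoperiod (100 µmol per m2 and s), and those in darkness (D) had none. All 22400 genes of the deposited comparison were tested.

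*UBP22* encodes a ubiquitin-specific protease. It is the catalytic subunit of a small deubiquitination module, together with SGF11 and ENY2, which removes ubiquitin from monoubiquitinated histone H2B (H2Bub). H2Bub is deposited over transcribed genes by the HUB ubiquitin ligases and accompanies transcript elongation, and the module is related to that of the SAGA coactivator in yeast and animals. DET1 is a repressor of light responses that acts with COP10, DDB1 and the CUL4 ubiquitin ligase. The comparison of *ubp22-1* with WT asks which transcripts differ when the gene for the protease carries the insertion.

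Few transcripts differed. With more than a 2-fold difference and an adjusted p under 0.01 required, 19 genes were higher in the libraries labelled *ubp22-1* (0.0848% of the genes tested) and 7 were lower (0.0312%), or 0.116% in either direction (two-sided Wald test on the authors' deposited DESeq2 fold changes with Benjamini-Hochberg adjustment). All 26 are protein-coding genes. An unadjusted p under 0.05 was reached by 783 genes, 3.50% of those tested, of which 400 were higher and 383 lower. The log2 fold changes lay, from the 25th to the 75th percentile, between -0.13 and 0.13, with a median of -0.0012. The median standard error of 0.19 corresponds to a 95% interval of 1.3-fold on either side of the estimate. This precision put the interval of 17278 genes (77.1%) inside a 2-fold change and that of 12619 genes (56.3%) inside a 1.5-fold change. The calls rest on the normal distribution of the Wald statistic. With a t distribution of 4 degrees of freedom, 0 genes passed (192 by unadjusted p under 0.05). Even *UBP22*, with a Wald statistic of 23.8, missed it over 22400 tests, so this setting does not part strong calls from weak ones.

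The deposited tables hold a mean over the 8 libraries of a fit and fold changes, from which the group means were recovered, and no value per library, so it cannot be shown which of the 2 libraries of a group was higher. The depth of each library is unknown; the mean normalized counts of all genes added up to 28719500 in WT (L) and 29324900 in *ubp22-1* (L). Spread between libraries of a group beyond counting error is given below as a coefficient of variation (CV) in percent of the mean, the square root of the dispersion over the 4 genotypes; the whole spread is larger at low counts. Seedlings are a mixture of tissues, and fewer cells of a type and less RNA per cell cannot be told apart. Markers of green tissue were abundant in both groups, with 692840 normalized counts of *RBCS1A*, a small subunit of Rubisco, in WT (L) and 781426 in *ubp22-1* (L).

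**Figure D1:**
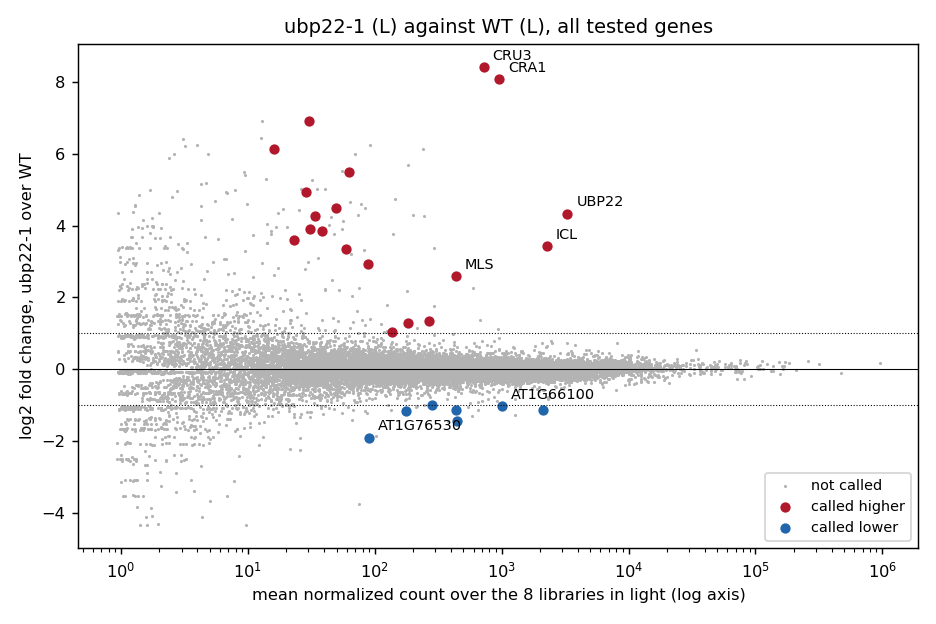
Log2 fold change of *ubp22-1* over WT in light (vertical axis) against the mean normalized count over the 8 libraries of the fit (horizontal log axis) for 22400 genes; dotted lines mark a 2-fold change. The 19 genes called higher (red) and 7 called lower (blue) stand outside a narrow band of genes that were not called (grey), which widens at low counts.

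The targeted gene itself gave the largest test statistic, and in the direction opposite to a loss of its transcript. *UBP22* (AT5G10790, chromosome 5, 3410085 to 3413036, plus strand, TAIR10.1) averaged 414 normalized counts in WT (L) and 8345 in *ubp22-1* (L), 20.2-fold higher (95% interval 15.8 to 25.8; log2 fold change 4.33, standard error 0.18, adjusted p = 5.3e-121). The CV was 12.1% for this gene. Its mean was 436 in *det1-1* (L) and 4018 in *det1-1ubp22-1* (L), so both groups labelled with the *ubp22-1* allele stood far above both groups without it. The excess was 9.22-fold in the *det1-1* background (log2 fold change 3.21, standard error 0.18), which is smaller than in WT by 1.13 on the log2 scale (standard error 0.26, adjusted p = 0.0081). A count per gene does not tell where along the gene the reads lie, and whether the reads come from an intact coding sequence was not tested. The transcript level of the targeted gene is therefore no check of its loss, and every direction given here is that of the libraries labelled *ubp22-1*.

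The genes beside *UBP22* showed no such excess. *AT5G10780*, which ends just before *UBP22* on the same strand and encodes a subunit-like protein of the ER membrane complex, had 1359 normalized counts in WT (L) and 1471 in *ubp22-1* (L) (log2 fold change 0.11, standard error 0.12). *AT5G10800*, which codes for an RNA recognition motif protein, runs on the opposite strand and overlaps the 3′ end of *UBP22* by 383 bases. It had 149 and 136 normalized counts in the same groups (log2 fold change -0.13, standard error 0.25), although the counting step names no strand setting and could split reads in the overlap. Farther out, the log2 fold change was 0.19 for *AT5G10770*, -0.06 for *ER* (enhancer of rudimentary) and -0.04 for *AT5G10820*, with standard errors between 0.12 and 0.19. *AT5G10760* was near the detection limit, with 0.40 and 2.24 normalized counts (log2 fold change 2.47, standard error 2.26). Of the 253 other tested genes within 500 kb, 0 were called with the Wald test, 6 had an unadjusted p under 0.05 (2.37%), and the smallest adjusted p was 0.16.

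The other members of the module did not pass the test. *SGF11* had 218 normalized counts in WT (L) and 240 in *ubp22-1* (L) (log2 fold change 0.14, standard error 0.20), and *ENY2* had 305 and 347 (0.19, standard error 0.17). Of 15 SAGA subunit genes tested, 0 were called and 2 had a log2 fold change above 0, with a median of -0.13. Those most shifted by test statistic were *TAF12* at -0.29 (standard error 0.17) and *TAF6* at -0.26 (0.14), both TBP-associated factors. Of 26 genes for ubiquitin-specific proteases other than *UBP22*, 0 were called and 5 lay above 0, with a median of -0.10; *UBP12*, the most abundant of them, had the largest test statistic (log2 fold change -0.23, standard error 0.11, unadjusted p = 0.032). Of 17 genes for H2B ubiquitination and elongation 0 were called, and *HUB1*, an H2B ubiquitin ligase, was at -0.24 (standard error 0.15). Of 11 listed histone H2B genes, the 5 whose symbol the reference pairs with their identifier had log2 fold changes between 0.04 and 0.21, and 0 were called; the others were not used. *DET1* was at 1333 normalized counts in WT (L) and 1164 in *ubp22-1* (L) (-0.20, standard error 0.14), and 0 of the 7 genes of its complex were called. At an unadjusted p under 0.05 stood 0 of the SAGA genes, 0 of the genes for H2B ubiquitination and elongation, 0 of the H2B genes, 1 of the proteases and 1 of the DET1 complex, *DDA1* (0.43, standard error 0.18).

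Several of the transcripts that rose encode seed proteins. Late embryogenesis abundant (LEA) proteins protect drying embryos, oleosins coat seed oil bodies, and cruciferins are the globulin storage proteins of *Arabidopsis* seeds. By their annotated products, 8 of the 19 higher genes are LEA or embryonic proteins, oleosins, cruciferins or related cupins, words chosen after the called genes were seen, out of 118 such genes tested, none of which was called lower. Of these 118, 6.78% were called higher, against 0.0848% of all genes, but the words were drawn from the called genes. An unadjusted p under 0.05 was reached by 32 as higher (27.1%, against 1.79% of all genes) and by 1 as lower, and 91 (77.1%, against 49.7%) had a log2 fold change above 0, with a median of 0.32 against -0.0012. These counts include the 8 called genes from which the words were drawn, so they have no bearing as an independent test.

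The 2 cruciferin genes had the largest fold changes and the widest errors. *CRA1* (AT5G44120) had 6.81 normalized counts in WT (L) and 1851 in *ubp22-1* (L) (log2 fold change 8.09, standard error 1.63, adjusted p = 0.00086), and its mean was 1934 in *det1-1* (L) and 33.4 in *det1-1ubp22-1* (L). *CRU3* (AT4G28520) had 3.20 and 1096 in the first pair of groups (8.42, standard error 1.91, adjusted p = 0.0073) and 1768 and 16.1 in the second. The CV was 110% for *CRA1* and 127% for *CRU3*, as large as the mean itself. The 95% intervals of the fold change accordingly ran from 29.7 to 2485 for *CRA1* and from 25.5 to 4613 for *CRU3*.

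Among LEA genes, *ECP63* (AT2G36640), an embryonic cell protein, had 5.56 normalized counts in WT (L) and 107 in *ubp22-1* (L) (log2 fold change 4.27, standard error 0.68, adjusted p = 1.2e-06). The dehydrin gene *LEA* (AT2G21490) had 3.20 and 97.9 (4.93, standard error 0.89), *AT5G66780* had 8.20 and 119 (3.86, standard error 0.75), and *AT3G17520* had 4.79 and 215 (5.49, standard error 1.27). *AT2G42560*, with an LEA domain, rose from 0.78 to 93.7 normalized counts; the WT value is under 1 count per library, and its fold change lay anywhere between 18.3 and 784. The oleosin gene *AT3G01570* had 15.4 and 157 normalized counts (3.36, standard error 0.57, adjusted p = 1.1e-05). *AT2G47780*, annotated as a rubber elongation factor protein, of a family found on lipid droplets, was the clearest rise after *UBP22*, from 6.09 to 137 (4.49, standard error 0.59, adjusted p = 2.1e-10). *HVA22B*, a homologue of a barley gene induced by abscisic acid, rose from 5.23 to 78.0 (3.90, standard error 0.66). In WT (L), 11 of the 19 higher genes had fewer than 10 normalized counts.

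Most markers of seed storage did not pass the test. Of 9 storage and oil body genes tested, 2 were called (the cruciferins above), 3 were higher at an unadjusted p under 0.05, and 8 had a log2 fold change above 0, with a median of 3.90 against -0.0012 over all genes. Their errors were wide, with a median standard error of 2.12. The mean counts of the 9 genes summed to 39.5 in WT (L), 3301 in *ubp22-1* (L), 6309 in *det1-1* (L) and 77.5 in *det1-1ubp22-1* (L). Most of the *ubp22-1* sum came from the 2 cruciferins. Group means recovered from fold changes cannot reach 0, so whether each gene was detected in each group was not tested. *SESA4*, a seed storage albumin and the member below 0, had 3.59 normalized counts in WT (L) and 2.99 in *ubp22-1* (L). The part of seed tissue in the rises was not tested. Of 5 seed dormancy genes, 0 were called and 3 were higher at an unadjusted p under 0.05; *ABI5*, a transcription factor of abscisic acid signalling in seeds, had 28.2 and 58.8 normalized counts (1.06, standard error 0.41, adjusted p = 0.85), and *DOG1* had 77.9 and 126 (0.69, standard error 0.29).

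The DNA before the start of these genes was read to show what they share at the sequence level. The 250 bases upstream of the annotated gene start were searched on both strands for ACGTG, the core of the abscisic acid response element, and for CATGCA, the RY element of seed genes; the palindrome CACGTG is counted on both strands. ACGTG was found before 11 of the 19 higher genes (57.9%), 2 of the 7 lower genes (28.6%) and 24.1% of all 22248 genes with a window. CATGCA was found before 7 of the higher genes (36.8%), 3 of the lower genes (42.9%) and 8.14% of all windows. A match is a run of letters and no evidence that a factor binds there. The motifs were chosen after the called genes were seen. The windows of the cruciferin genes and of 2 genes with ACGTG alone are printed 5′ to 3′ from TAIR10.1, with the matches in capitals:
CRA1 (chr5:17758337-17758586, minus strand): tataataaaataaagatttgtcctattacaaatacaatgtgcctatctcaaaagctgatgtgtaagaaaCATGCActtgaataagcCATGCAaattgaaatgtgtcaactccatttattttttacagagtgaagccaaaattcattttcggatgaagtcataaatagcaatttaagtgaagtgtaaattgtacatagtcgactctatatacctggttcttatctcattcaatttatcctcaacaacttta
CRU3 (chr4:14087306-14087555, plus strand): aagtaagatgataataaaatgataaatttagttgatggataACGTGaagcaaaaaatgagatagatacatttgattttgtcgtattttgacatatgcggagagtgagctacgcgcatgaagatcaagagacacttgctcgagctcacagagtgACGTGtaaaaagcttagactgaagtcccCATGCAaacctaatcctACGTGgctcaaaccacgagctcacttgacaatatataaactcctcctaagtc
HVA22B (chr5:25089841-25090090, plus strand): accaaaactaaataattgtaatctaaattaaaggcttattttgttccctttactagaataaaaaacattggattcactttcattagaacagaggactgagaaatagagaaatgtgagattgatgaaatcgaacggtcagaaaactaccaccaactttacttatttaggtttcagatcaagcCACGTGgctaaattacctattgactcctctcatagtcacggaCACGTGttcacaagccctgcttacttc
AT2G47780 (chr2:19569790-19570039, plus strand): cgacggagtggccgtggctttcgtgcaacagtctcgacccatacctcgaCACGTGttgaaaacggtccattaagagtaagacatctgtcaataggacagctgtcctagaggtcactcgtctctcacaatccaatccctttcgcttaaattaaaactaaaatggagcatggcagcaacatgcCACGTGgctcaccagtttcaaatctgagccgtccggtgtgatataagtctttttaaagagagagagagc
None of the 4 windows overlaps another annotated gene. *CRA1* has CATGCA at 2 places and no ACGTG, *CRU3* has both, and the *HVA22B* and *AT2G47780* windows carry ACGTG within the palindrome and no CATGCA.

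Isocitrate lyase and malate synthase, the enzymes particular to the glyoxylate cycle, which turns stored seed oil into precursors of sugar in germinating seedlings, rose as well. *ICL* (AT3G21720), for isocitrate lyase, had 398 normalized counts in WT (L) and 4252 in *ubp22-1* (L) (log2 fold change 3.42, standard error 0.68, adjusted p = 0.00078), with 3598 in *det1-1* (L) and 869 in *det1-1ubp22-1* (L). *MLS* (AT5G03860), for malate synthase, had 173 and 1040.3 in the first pair (2.58, standard error 0.47, adjusted p = 9.1e-05) and 336 and 196 in the second. The CV was 47.3% for *ICL* and 32.3% for *MLS*. Both genes had WT means of 173 or more normalized counts, unlike the storage genes.

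The remaining higher genes are of several kinds. *AT1G03106*, an uncharacterized protein, had 26.0 normalized counts in WT (L) and 196 in *ubp22-1* (L) (2.92, standard error 0.43). *AT5G07330*, annotated as an NFU1 iron-sulfur cluster protein, had 5.27 and 64.0 (3.60, standard error 0.76), and *AT1G65090*, annotated as nucleolin, had 0.79 and 56.0 (6.15, standard error 1.3). The 3 smallest rises were *DAA1*, a P-loop ATPase, from 99.8 to 252 (1.34, standard error 0.29), *AT1G07985* from 65.7 to 160 (1.29, standard error 0.27) and *AT1G20070* from 105 to 216 (1.03, standard error 0.24).

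**Figure D2:**
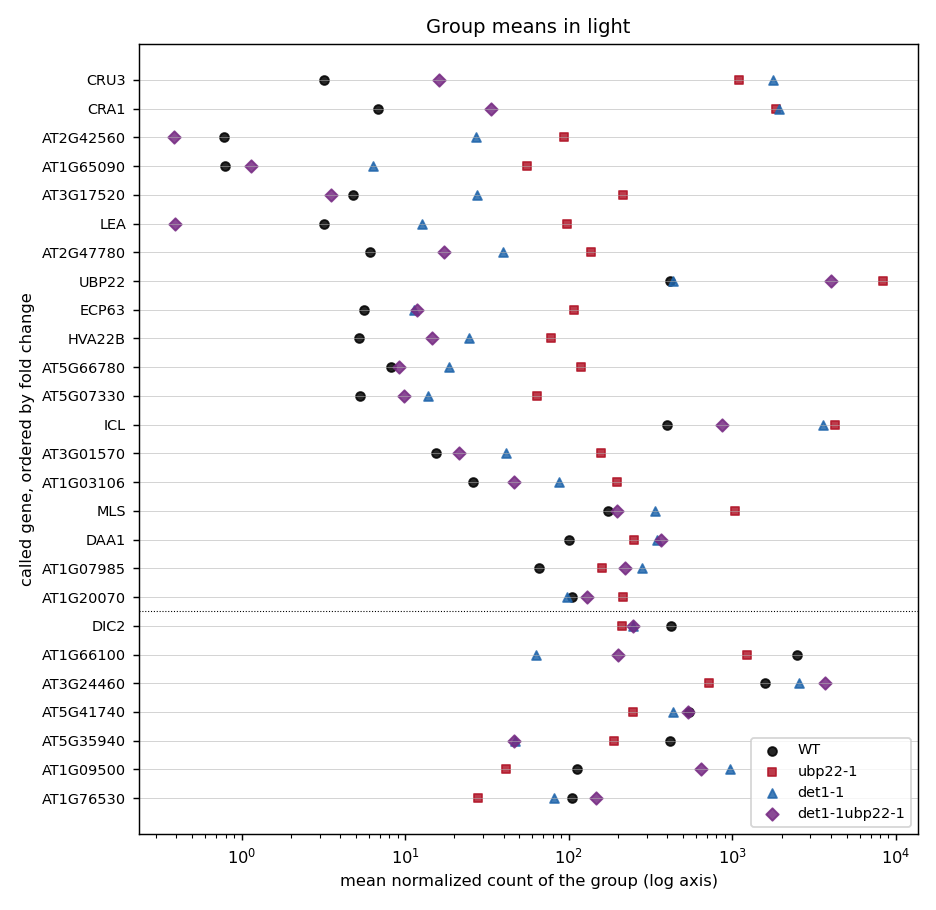
Mean normalized count (horizontal log axis) of each of the 26 called genes in WT, *ubp22-1*, *det1-1* and *det1-1ubp22-1* in light, ordered by the fold change of *ubp22-1* over WT; the dotted line parts the 19 higher from the 7 lower genes. For *CRU3* and *CRA1* the *ubp22-1* and *det1-1* means lie together at 1096 or more and the other groups at 33.4 or less, whereas for *UBP22* the groups with the *ubp22-1* allele lie together.

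The 7 lower genes changed less, by log2 fold changes between -1.0 and -1.91, and from well-measured WT means between 105 and 2502 normalized counts. *AT1G66100* encodes a thionin, a small antimicrobial peptide, and fell from 2502 normalized counts in WT (L) to 1231 in *ubp22-1* (L) (-1.02, standard error 0.14, adjusted p = 4.0e-09). *AT5G41740*, an immune receptor of the TIR-NBS-LRR class, fell from 543 to 249 (-1.13, standard error 0.20, adjusted p = 4.9e-05), and *AT5G35940*, a mannose-binding lectin, from 419 to 188 (-1.16, standard error 0.22). *AT1G76530*, of the auxin efflux carrier family, had the largest fall, from 105 to 27.9 (-1.91, standard error 0.39, adjusted p = 0.0012). *AT3G24460*, with a Serinc domain, had 1574 and 722 normalized counts (-1.12, standard error 0.22), *AT1G09500*, with an NAD(P)-binding fold, had 113 and 41.3 (-1.45, standard error 0.30), and *DIC2*, a mitochondrial dicarboxylate carrier, had 425 and 212 (-1.0, standard error 0.23). Their CVs lay between 10.2% and 22.8%.

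A further 12 genes passed the adjusted p without reaching a 2-fold change, 6 in each direction. The higher ones were the peroxidase genes *AT3G32980* (5585 and 9328 normalized counts, log2 fold change 0.74) and *AT2G37130* (0.72), the chitinase gene *AT2G43610* (0.73), the zinc finger gene *AT5G63260* (0.77), the noncoding RNA *AT2G14878* (0.85) and *KIN1*, which responds to cold and abscisic acid (0.80). The lower ones were *BT5*, a BTB and TAZ domain protein (-0.50), *LEA3* (-0.89), *CRK18*, a receptor-like kinase (-0.92), *TCH4*, a xyloglucan-modifying enzyme induced by touch (-0.75), the protease inhibitor gene *AT5G43570* (-0.84) and *AT5G26270* (-0.94). Just outside the threshold on the adjusted p stood *LTI65* (also named *RD29B*; 22.2 and 107 normalized counts, adjusted p = 0.011), *SQE6* (adjusted p = 0.012), the oleosin gene *AT2G25890* (0.013), *AT1G15330* (0.014) and *AT5G33370* (0.014). The closest inside were *AT3G17520* (0.0095), *AT1G20070* and *DIC2* (both 0.0083), *CRU3* (0.0073) and *DAA1* (0.0022). *KIN1* and *LTI65* belong to the list of 12 cold and abscisic acid response genes, of which 0 were called. They were the 2 of that list higher at an unadjusted p under 0.05. The list had a median log2 fold change of 0.17 and a lowest of -3.51, and its most abundant member, *COR47*, was at 0.10 (standard error 0.13).

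The same allele was compared in a second background. The libraries of *det1-1ubp22-1* (L) and *det1-1* (L) share no library with those of *ubp22-1* (L) and WT (L), so this comparison asks whether the called genes moved the same way in other seedlings. In it, 10 genes were higher (0.0446%) and 5 lower (0.0223%), and 1801 (8.04%) had an unadjusted p under 0.05. Of the 26 genes called in the WT background, 6 had the same sign in the *det1-1* background, 2 of them at an unadjusted p under 0.05. The other 20 had the opposite sign, 12 of them at an unadjusted p under 0.05. The share of opposite signs over all genes was not counted, and the 2 comparisons ran in opposite directions with gene length over all genes (below). *UBP22* was the only gene called in the same direction in both. The thionin gene *AT1G66100* was called in opposite directions, with 63.1 normalized counts in *det1-1* (L) and 201 in *det1-1ubp22-1* (L) (1.67, standard error 0.21, adjusted p = 1.2e-11).

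Of the higher genes, only *UBP22* was called higher again over *det1-1* (L), and 15 had lower means in *det1-1ubp22-1* (L) than in *det1-1* (L). Of the 19 higher genes, 18 had a log2 fold change above 0 in *det1-1* (L) against WT (L), with a median of 1.98. In *det1-1ubp22-1* (L) against WT (L), 16 were above 0, with a median of 0.90. Both counts include *UBP22* and use the WT (L) libraries of the comparison that called the genes. In the 5 groups of all genes by length (below), 44.3% to 53.5% lay above 0 in *det1-1* (L) against WT (L). In *det1-1ubp22-1* (L) against WT (L), these shares were 42.7% to 58.7%. Among the 18 other than *UBP22*, 3 had log2 fold changes above 0 in the *det1-1* background, *ECP63* at 0.05 (standard error 0.67), *DAA1* at 0.07 (0.27) and *AT1G20070* at 0.41 (0.25). *ICL* was at -2.05 (standard error 0.68), *CRA1* at -5.86 (1.59), *CRU3* at -6.78 (1.84) and *AT2G42560* at -6.14 (1.82), none of which was called, with adjusted p of 0.069 or more. All 9 seed storage markers were lower in that background at an unadjusted p under 0.05, which 8.04% of all genes reached in either direction. Of these markers, *SESA4* was called lower by the Wald test (-6.43, standard error 1.09, adjusted p = 1.1e-05). It had 166 normalized counts in *det1-1* (L) and 1.93 in *det1-1ubp22-1* (L). Of the lower genes, *AT1G09500* kept its sign (-0.58, standard error 0.25), *AT5G35940* was at -0.01 (0.30), and *AT3G24460*, *AT5G41740* and *AT1G76530* were at 0.53 (0.22), 0.30 (0.20) and 0.85 (0.36).

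The difference of the effects between the backgrounds was tested as an interaction. It was called above 0 for 9 genes (0.0402%) and below 0 for 22 genes (0.0982%) of all tested. It was called for 20 of the 26 genes, 16 of the 19 higher and 4 of the 7 lower; since the difference contains the comparison that called these genes, their number has no bearing as an independent test. It did not pass for *AT5G07330*, *DAA1*, *AT1G20070*, *AT5G35940*, *AT1G09500* and *DIC2*, with adjusted p of 0.049 or more. In the reverse direction, of the 14 genes other than *UBP22* called in the *det1-1* background, 9 had the same sign in *ubp22-1* (L) against WT (L), 1 of them at an unadjusted p under 0.05. That gene is *OPT3*, an oligopeptide transporter with a role in iron status, at -1.03 (standard error 0.14) in the *det1-1* background and -0.32 (0.14) in WT on the log2 scale.

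**Figure D3:**
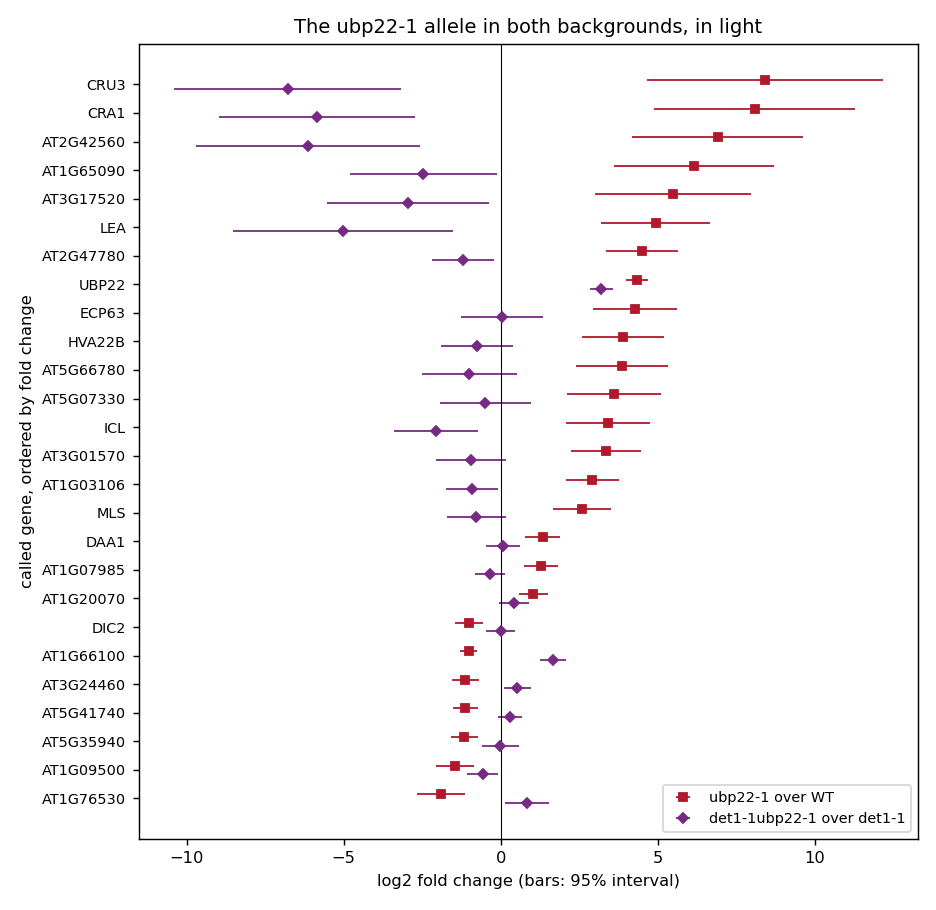
Log2 fold change of the 26 called genes for *ubp22-1* over WT (squares) and for *det1-1ubp22-1* over *det1-1* (diamonds), with 95% intervals; each comparison has 2 libraries a group and they share none. *UBP22* alone stands far to the right in both, and 20 of the 26 genes lie on opposite sides of 0. The share of opposite signs over all genes was not counted.

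The light response of the called genes was compared in other libraries. In *det1-1* seedlings, whose libraries are not part of the *ubp22-1* comparison, 17 of the 19 higher genes had lower means in light than in darkness and 7 were called lower, against 11.8% of all genes. All 7 lower genes had higher means in light, and 3 were called higher, against 15.7% of all genes. The 11.8% and 15.7% are shares of called genes, and the shares of all genes by sign alone were not counted. Light over darkness in *det1-1*, *ICL* was at -3.15 on the log2 scale (standard error 0.75), *MLS* at -3.01 (0.79), *AT3G24460* at 2.2 (0.24) and *AT1G09500* at 1.42 (0.25). The 2 exceptions among the higher genes were *CRA1* at 2.55 (2.2) and *CRU3* at 3.67 (2.03). In WT, where the light group is the same pair of libraries as the control of the *ubp22-1* comparison, the values were -6.53 (0.75) for *ICL*, -3.45 (0.79) for *MLS*, 1.86 (0.24) for *AT3G24460* and 4.99 (0.52) for *AT1G09500*; because the libraries are shared, these are given side by side only.

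Outside the module and the seed storage markers, no gene of the pathway lists was called, so 22 of 24 lists held no call. Photosynthesis genes were measured with the smallest errors. Of 21 light-harvesting antenna genes, 20 lay above 0, with a median log2 fold change of 0.13; *LHCB1.3*, the most abundant, had 294857 normalized counts in WT (L) and 342724 in *ubp22-1* (L) (0.22, standard error 0.14), and *LHCB7* was the exception at -0.45 (0.22). Of 17 light signalling genes the median was -0.07, with *HYH*, a bZIP factor of photomorphogenesis, at -0.34 (0.15) and *PHYA* at 0.26 (0.14). *CHS*, chalcone synthase, had 19125 and 18864 normalized counts (-0.02, standard error 0.20), and the 16 flavonoid genes had a median of 0.02. In the clock, with a median of -0.13 over 19 genes, *CCA1* was at -0.26 (0.13) and *PRR9* at -0.42 (0.19).

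None of the listed flowering genes and none of the 11 listed genes of salicylic acid and camalexin defence were called. *FLC*, the repressor of flowering, had 156 normalized counts in WT (L) and 146 in *ubp22-1* (L) (-0.09, standard error 0.29), and *FT* was close to the detection limit with 2.90 and 0.14 (-4.35, standard error 1.72, adjusted p = 0.92). *WRKY33*, a regulator of camalexin synthesis, had 957 and 597 normalized counts (-0.68, standard error 0.17) and missed the threshold (adjusted p = 0.038). *PR5*, a marker of salicylic acid response, had 73.0 and 36.4 (-1.0, standard error 0.31, adjusted p = 0.22). Of these 11 defence genes 3 were lower and 0 higher at an unadjusted p under 0.05. Root hair and endodermis markers all lay above 0, 11 of 11 with a median of 0.28 and 1 at an unadjusted p under 0.05, *PRP3*, a proline-rich wall protein of root hairs (1200 and 1549 normalized counts; 0.37, standard error 0.16). Cutin and wax genes had a median of -0.14, with *CER1*, of alkane synthesis, at -0.50 (0.25).

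**Figure D4:**
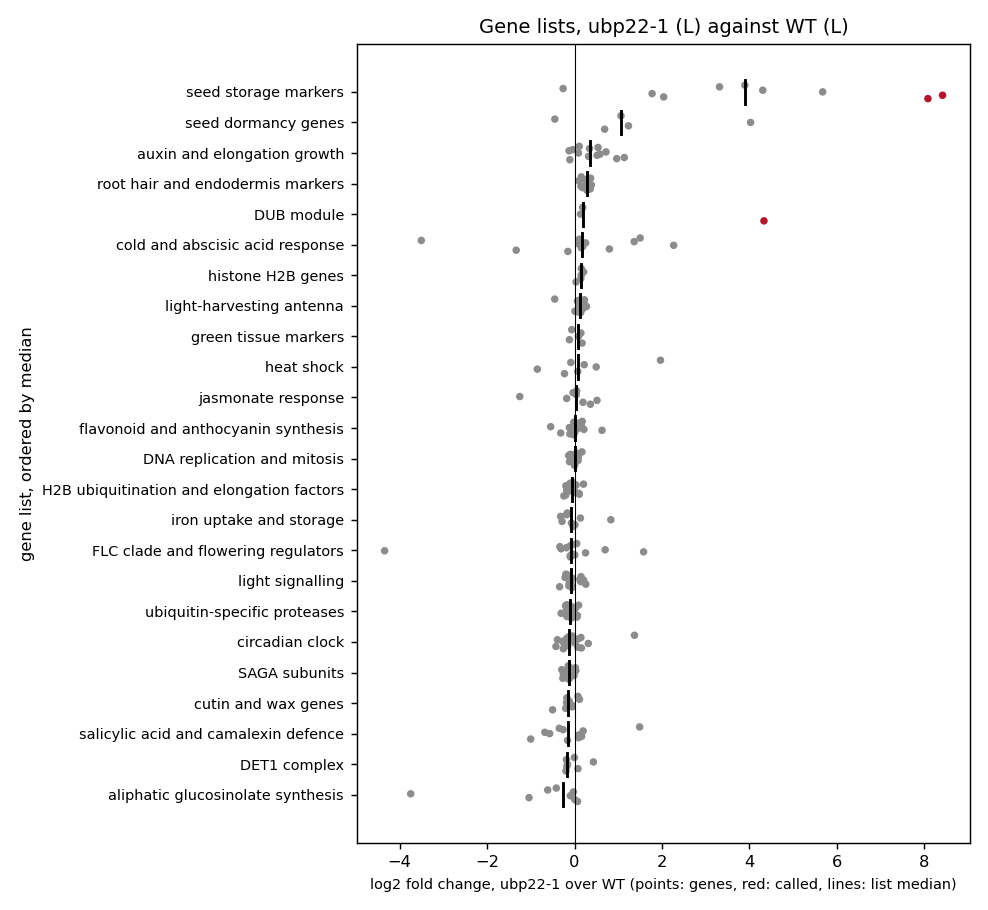
Log2 fold change of *ubp22-1* over WT in light for the tested members of 24 gene lists, 1 point a gene, with the median of each list as a line and called genes in red. The seed storage markers lie highest, with a median of 3.90, a median standard error of 2.12 and 2 called members, and *UBP22* is the other called member.

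Small differences over all genes followed gene length. With the genes ordered by annotated length and cut into 5 groups of equal size, from the shortest to the longest group, the median log2 fold change of *ubp22-1* over WT was 0.11, 0.05, 0.01, -0.02 and -0.09, and the share of genes above 0 fell from 64.6% to 26.0%. Among genes with a mean of at least 200 normalized counts this share went from 71.3% to 17.1%. In the *det1-1* background the order was turned, with medians of -0.10, -0.09, -0.04, 0.01 and 0.09 and shares from 39.2% to 69.2%. The shortest group holds genes of up to 1463 bases and the longest those from 3541 bases. In the WT background, some lists with many small values of 1 sign lie on the same side of 0 as genes of like length. The antenna genes (median length 1491 bases) and the root hair and endodermis markers (1465) had medians of 0.13 and 0.28, and their length group 0.05. The SAGA subunit genes (3313) had -0.13 and their length group -0.02. The other ubiquitin-specific proteases (4362) had -0.10 and the longest group -0.09. In the *det1-1* background these lists did not all follow the turned order. The median was 0.44 for the root hair and endodermis markers, with 7 of 11 higher at an unadjusted p under 0.05. It was 0.06 for the antenna genes, 0.02 for the SAGA subunit genes and 0.03 for the proteases. Genes are not independent replicates, so no test is given, and the part of gene length in the medians of the lists was not tested.

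**Figure D5:**
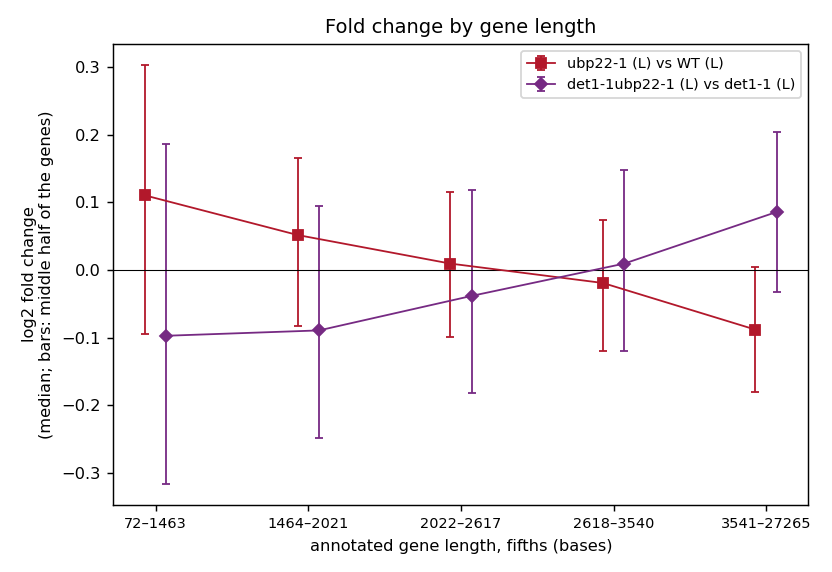
Median log2 fold change, with the 25th to 75th percentile as bars, in 5 equal groups of genes by annotated length, for *ubp22-1* over WT and for *det1-1ubp22-1* over *det1-1*, all in light. The medians go from 0.11 to -0.09 in the first comparison and from -0.10 to 0.09 in the second.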

How the data were processed

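RNA of 12 libraries was sequenced in single-end 50-base reads from poly(A)-enriched, strand-specific libraries. Base calling with CASAVA 1.8, mapping to TAIR10 with STAR, gene counting with HTSeq and fitting with DESeq2 are the steps in the submitters' notes and the study's methods. DESeq2 was run by the authors on sets of 8 libraries, and the set used here holds the 4 genotypes in light. The authors deposited 7 tables of comparisons, with no value per library. The signal in the deposited tables is the mean normalized count over the 8 libraries of a fit, the counts divided by a size factor per library. The log2 fold changes and their standard errors are the authors' model estimates without shrinkage, so low counts give large, uncertain fold changes. The deposited score is the Wald statistic, and the authors' p-values are its two-sided values, adjusted over all entries. The entry for the total was left out.

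Depth per library is unknown, and the standard errors are the measure of precision. A Wald p was recomputed for each gene and adjusted by the Benjamini-Hochberg method over 22400 genes, and all 22400 calls equal those made with the deposited adjusted p. A gene was called at over 2-fold and an adjusted p under 0.01, the thresholds used by the study. Solving the overall mean and the 3 fold changes against WT gave the group means. Each gene's negative binomial dispersion was solved from its standard errors and used for *det1-1ubp22-1* against *det1-1* and for the difference of effects. For *ubp22-1* against WT, the median of modelled over deposited errors was 1.00. Because the dispersion was solved from the deposited errors, this ratio is no check of the modelled errors of the other comparisons. Which group each sign belongs to was checked in the first fit, whose WT (L) means of 145 genes were nearer to those recovered as deposited for 130. By the study's methods the 2 libraries of a group are biological replicates from independently grown seedlings.

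The genes named are the called genes, *UBP22* with its 3 neighbours on each side, the other module members and *DET1*. Those nearest the threshold and those under 2-fold are also named. From some lists, part of the most abundant and most shifted members are named too. No member of the jasmonate, heat shock, auxin, DNA replication or glucosinolate lists is named. *SESA4*, *FLC* and *OPT3* were added after their values were seen. The members and the 24 lists were chosen with earlier results of these data known. Of 300 listed identifiers, 13 were dropped because no source paired them with the symbol, and 280 were tested. Positions and upstream sequences are from TAIR10.1 (RefSeq); 22249 tested genes matched it. The calculations were tested on simulated data whose standard errors came from the same model, which is no check of the modelled errors. Scripts ran in Python 3.11.15 (SciPy 1.17.1, NumPy 2.4.6, pandas 2.3.3); matplotlib 3.10.9 drew the figures. Alternatives were another false discovery rate, no fold threshold, a minimum mean count of 10, a null hypothesis of up to a 2-fold change, recentring on the median, Wald statistics divided by their robust spread, and a t distribution (4 degrees of freedom) for the p.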

Additional observations from a re-analysis of the deposited data

Results flagged for a closer look

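For 20 of the 26 called genes, the effect of the allele differed between the WT and the *det1-1* background by the test of that difference, a Wald test with Benjamini-Hochberg adjustment over all genes. The difference contains the comparison that called them. The value given is the log2 fold change in the *det1-1* background minus that in WT. It was -1.13 for *UBP22*, the 1 gene of the 20 with the same direction called in both backgrounds. *ECP63* (-4.22) was close to 0 in the *det1-1* background. Among the other seed maturation genes it was -15.20 for *CRU3*, -13.94 for *CRA1*, -13.04 for *AT2G42560*, -9.95 for *LEA*, -8.45 for *AT3G17520*, -4.86 for *AT5G66780* and -4.30 for the oleosin gene *AT3G01570*. It was -5.68 for *AT2G47780*, -4.64 for *HVA22B*, -5.47 for *ICL* and -3.36 for *MLS*. The genes of other or unknown function had -8.61 (*AT1G65090*), -3.83 (*AT1G03106*) and -1.63 (*AT1G07985*). Among the lower genes it was 2.69 for the thionin gene *AT1G66100*, 2.76 for *AT1G76530*, 1.65 for *AT3G24460* and 1.43 for *AT5G41740*. With a t distribution in place of the normal, 0 of these differences passed, a setting that *UBP22* in *ubp22-1* (L) against WT (L) missed as well.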

How the results depend on the processing

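In *ubp22-1* (L) against WT (L), the 26 calls (19 higher, 7 lower) remained with a minimum mean count of 10. A false discovery rate of 0.05 gave 29 higher genes, no fold threshold gave 13 lower genes, and rescaled Wald statistics gave 49 (38 higher, 11 lower). With a null hypothesis of up to a 2-fold change, 2 genes were called, 2 higher and 0 lower, *UBP22* and *AT2G47780*. With a t distribution of 4 degrees of freedom, 0 genes were called higher, 0 lower and 0 in all, with 192 at an unadjusted p under 0.05. *UBP22* then kept its log2 fold change of 4.33 and missed the threshold. The counts of 0 under this setting, here and below, therefore do not part strong calls from weak ones. In *det1-1ubp22-1* against *det1-1* (10 higher and 5 lower, 15 in all), no fold threshold gave 29 (20 higher, 9 lower), the 2-fold null hypothesis gave 2 (1 higher, 1 lower), the t distribution gave 0 (384 at an unadjusted p under 0.05) and adding the variances of both deposited comparisons gave 4 (2 higher, 2 lower). Of 39 genes called at a false discovery rate of 0.05, 11 had the same direction in both backgrounds, against 6 of 26. The 31 called differences between backgrounds became 0 with the t distribution. Apart from recentring, which moves each log2 fold change by 0.001, the settings leave the fold changes of the first comparison as they are, so they do not bear on directions. No paired analysis was possible because the tables hold no value per library, and leaving out 1 replicate was not run for the same reason; whether 1 library decides a call was therefore not tested.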
